A study of Ovis aries with 8 samples.

Results

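This is a description of 10 liver genes that make the apolipoproteins, the protein coats of blood lipid particles, or that build those particles: APOA1, APOA2, APOA4, APOB, APOC2, APOC3, APOE, APOH, APOM and MTTP. They were taken by symbol from a deposited table of 27729 genes, where 9 of the 10 carry their own symbol. APOA1 stands there as LOC101117785, described as apolipoprotein A-I, and was found because a RefSeq gene table of sheep pairs the same Entrez identifier with APOA1. Gene expression had been measured by sequencing of poly(A)-selected RNA in the liver of 8 sheep lambs, each library from a separate animal. The study's title concerns lambs that were restricted in feed while suckling and fattened later. There were 4 lambs labelled RES and 4 labelled ADL, names that the labels do not spell out, and all 8 had a slaughter weight of 27 kg in their labels. Breed, sex and age are not stated in the labels used here. The genes were chosen by symbol with the measured RES against ADL differences of this table known, with no threshold on them, so their differences between the groups are given as a description and not as independent evidence.

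Lipoproteins carry triglyceride and cholesterol through the blood. The liver builds very-low-density lipoprotein (VLDL) around a single APOB molecule, onto which the transfer protein MTTP loads lipid in the endoplasmic reticulum. High-density lipoprotein (HDL) is built around APOA1 and APOA2, while small exchangeable apolipoproteins such as APOC2, APOC3 and APOE move between particles and steer their lipolysis and uptake. In ruminants the liver exports triglyceride as VLDL only slowly. APOA4 is made mainly by the intestine in humans, and APOH, despite its name, is chiefly a plasma glycoprotein that binds negatively charged phospholipids.

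In RES livers the mRNAs of 7 of the 9 genes that could be tested had a lower mean level than in ADL livers. Those of APOB and MTTP had a higher one. Of all tested genes, 29.0% had a lower and 71.0% a higher mean log2 level in RES. The 7 were APOA1, APOA2, APOM, APOC2, APOC3, APOE and APOH, whose mean levels lay 12.1 to 20.6% below those of ADL. For APOH and APOM the highest RES lamb lay below the lowest ADL lamb, as it did for 0.781% of all tested genes. A fit to the 13437 genes whose mean over the lambs reached 1 TPM left all 9 short of an adjusted p of 0.05, like every other gene tested. In the authors' deposited table APOH alone of the 10 passed, on the lower side. There 0.142% of the genes with an adjusted p passed on that side. That table adjusted p over fewer genes, 5627, and on another scale than the fit above. TPM (a scaled share of transcripts) counts the reads of a gene per base of its length and scales each library to the same total, so levels can be compared between genes.

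Apart from APOA4, these were abundant transcripts of the liver. APOA2 ranked 8 among all 27729 genes by mean TPM, at 9272 ± 1463 TPM in RES and 10874 ± 604 TPM in ADL (SD, n = 4 each, as for all TPM means here). APOC3, APOE and APOH followed at ranks 22, 23 and 24, and their levels did not differ from one another beyond the spread between lambs. APOA1 and APOC2 ranked 105 and 118, APOB 361, and APOM and MTTP 1051 and 1052. APOA4 ranked 15188. Together the 10 genes took 2.59 ± 0.195% of all TPM in RES and 3.06 ± 0.112% in ADL. The share was 2.78, 2.32, 2.65 and 2.63% in RES lambs 1 to 4, and 3.08, 2.92, 3.04 and 3.19% in ADL lambs 1 to 4, so that all RES lambs lay below all ADL lambs. As a share of assigned reads, in which APOB weighs more for its length, the groups overlapped, at 1.24 to 1.46% in RES and 1.44 to 1.56% in ADL.

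The libraries held 14514084 to 16182407 reads assigned to genes, and 19117 to 19435 genes lay above 0 TPM. The 9 tested genes held 774 to 58450 reads per lamb each. Albumin took 9.43 to 13.4% of all TPM in RES and 13.2 to 14.8% in ADL. In whole tissue, fewer cells of a type and less RNA per cell cannot be told apart. The labelled tissue was checked with 12 hepatocyte markers, all with a mean of 1 TPM or more. Of these, 9 had a lower mean log2 level in RES, beside 29.0% of all tested genes, and 3 a higher one. ARG1 alone stood at an unadjusted limma p under 0.05, on the higher side. The summed level of the 12 markers, most of it albumin, ran from 118686 to 158136 TPM in RES and from 159417 to 180175 TPM in ADL. These ranges do not overlap, and their part in the differences described here was not tested.

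**Figure D1:**
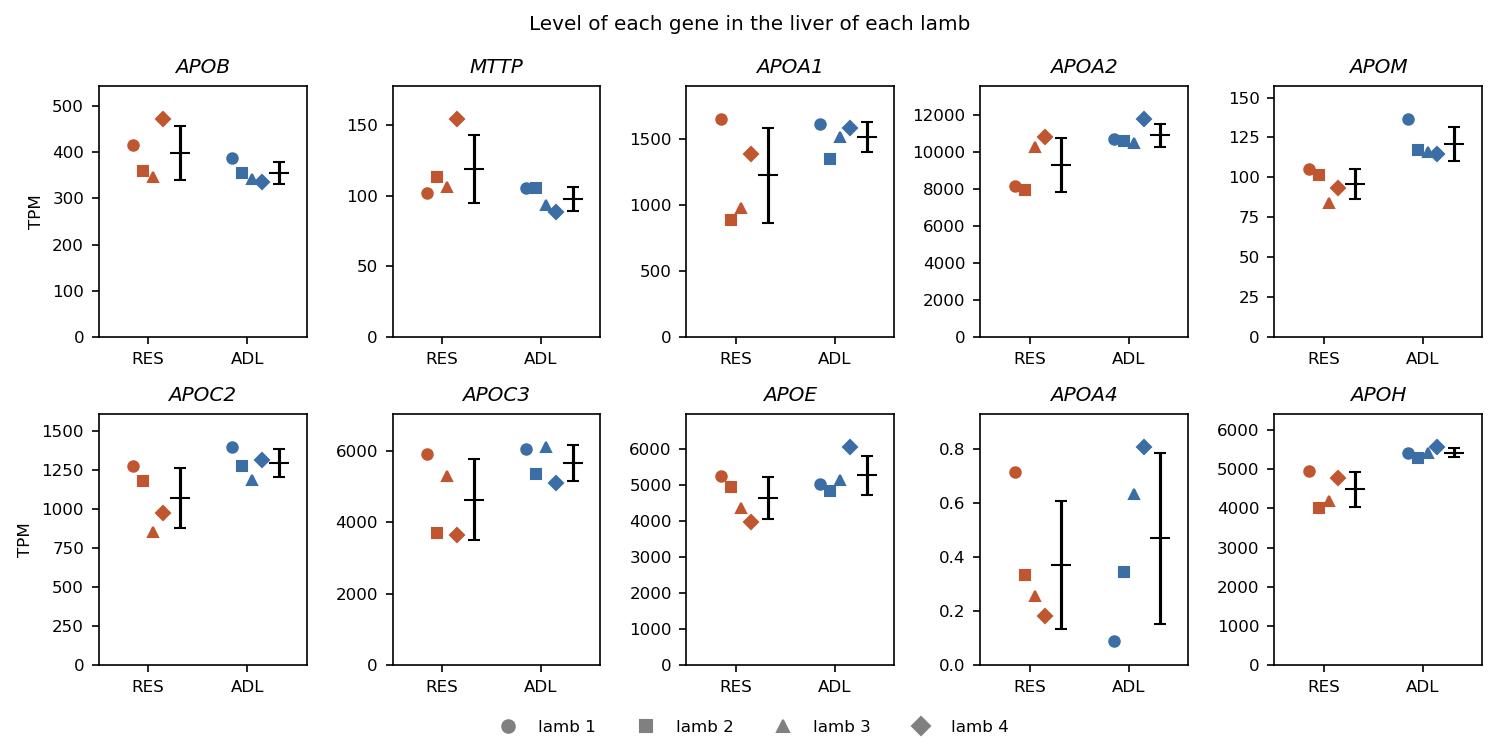
TPM of each gene in the liver of each lamb, RES on the left and ADL on the right of each panel. Symbols mark the lamb number, which the labels do not say to pair lambs across groups. The bar beside them gives the mean and SD of 4 lambs. APOM and APOH do not overlap between groups, and APOA4 stays below 1 TPM.

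The scaffold and the loading protein of VLDL had higher means in RES, unlike the other tested genes of the set. A higher mean log2 level in RES was also found for 71.0% of all tested genes. APOB, which lies on chromosome 3 from 28578875 to 28618780 with 29 exons, had 416, 359.5, 346 and 472 TPM in RES lambs 1 to 4, and 388, 355, 342 and 334 TPM in ADL lambs 1 to 4. The groups overlapped, with RES lambs 4 and 1 above every ADL lamb. The log2 difference, RES minus ADL, was 0.16 ± 0.11 (limma's standard error, as for all differences). MTTP, on chromosome 6 from 25011315 to 25065725, had 102, 113, 106 and 154 TPM in RES lambs and 105, 105, 93.0 and 88.2 TPM in ADL lambs. RES lamb 4 held the highest value of both genes and ADL lamb 4 the lowest. The MTTP difference was 0.26 ± 0.14, and the median difference of all tested genes was 0.09. Without RES lamb 4 the differences were 0.07 for APOB and 0.13 for MTTP. Dividing by size factors, which sets the median gene nearly equal, brought APOB to 0.06 ± 0.11 and MTTP to 0.16 ± 0.13. MTTP stood at 0.298 ± 0.0369 TPM per TPM of APOB in RES and 0.276 ± 0.0138 in ADL. The coordinates are those of the authors' annotation, and neither their genome build nor their counting base is stated.

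Among the HDL proteins, APOA1, the main protein of HDL and an activator of its cholesterol-esterifying enzyme LCAT, was the most variable in RES. It had 1652, 884, 979 and 1384 TPM in RES lambs, and 1609.8, 1351, 1510.2 and 1584 TPM in ADL lambs. RES lamb 1 thus had the highest value of all 8 and RES lamb 2 the lowest. The mean was 1225 ± 358 TPM in RES and 1514 ± 116 TPM in ADL, a log2 difference of -0.35 ± 0.19. Without RES lamb 1 the difference was -0.51, and without RES lamb 2 it was -0.21. A neighbouring gene, LOC101112345, is described as apolipoprotein A-I-like and stood at 401 ± 115 TPM in RES and 517.5 ± 52.3 TPM in ADL. Reads can be shared between such close copies, so the value of APOA1 as a single gene is uncertain. Summed, the pair had 1625 ± 473 TPM in RES and 2031 ± 168 TPM in ADL.

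APOA2, the other main HDL protein, had 8132, 7911, 10254 and 10790.3 TPM in RES lambs, and 10679.6, 10565, 10479 and 11772 TPM in ADL lambs. Its groups overlapped only because RES lamb 4 exceeded the ADL lambs 1 to 3, and they did not overlap after division by size factors. The difference was -0.24 ± 0.14. APOA2 lies on chromosome 1 from 110622918 to 110624161. APOM, a lipocalin that carries sphingosine 1-phosphate on HDL, had 105, 101, 83.9 and 93.5 TPM in RES lambs, and 137, 117, 116 and 114 TPM in ADL lambs. All 4 RES lambs lay below all 4 ADL lambs. Its difference of -0.33 ± 0.10 was -0.43 ± 0.10 after scaling. APOM lies on chromosome 20 from 26691880 to 26696846 and has 8 exons.

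The exchangeable apolipoproteins of triglyceride-rich particles had lower means in RES, with overlap. APOC2, the cofactor that lipoprotein lipase needs, had 1271, 1175, 852 and 971 TPM in RES lambs, and 1398, 1272, 1184 and 1310.2 TPM in ADL lambs. Only RES lamb 1 lay inside the ADL range, and the groups did not overlap after division by size factors. The difference was -0.29 ± 0.14, and -0.19 without RES lamb 3. APOC3, which inhibits lipoprotein lipase and the uptake of remnants, had 5901, 3701, 5281 and 3654 TPM in RES lambs, and 6043, 5359.7, 6121 and 5088 TPM in ADL lambs. RES lambs 2 and 4 were low and RES lambs 1 and 3 lay inside the ADL range. Its difference was -0.31 ± 0.18.

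APOE, the ligand by which remnants bind the LDL receptor and its relatives, had 5268, 4941, 4364 and 3969 TPM in RES lambs, and 5045, 4827, 5144 and 6079 TPM in ADL lambs. RES lambs 3 and 4 lay below all ADL lambs and RES lambs 1 and 2 inside their range. The difference of -0.19 ± 0.13 was the smallest of the 7 lower genes, and it was -0.12 without RES lamb 4 or ADL lamb 4 and -0.29 ± 0.14 after scaling. Macrophages make APOE too. Of the 10 tested markers of Kupffer cells and macrophages, 8 had a lower mean log2 level in RES, beside 29.0% of all tested genes. After scaling these were 9 and 48.4%. None stood at an unadjusted limma p under 0.05. The summed level of the 11 markers found ran from 746 to 1386 TPM in RES and from 891 to 1143 TPM in ADL. Their part in the level of APOE was not tested.

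APOA4 was nearly absent from these livers. It had 8, 4, 3 and 2 reads in RES lambs 1 to 4, and 1, 4, 8 and 10 reads in ADL lambs 1 to 4. These are 0.713, 0.335, 0.256 and 0.181 TPM in RES, and 0.0881, 0.344, 0.633 and 0.808 TPM in ADL. RES lambs 3 and 4 and ADL lamb 1 had no more than 3 reads, the smallest count taken here as detection, worth 0.237 to 0.271 TPM. The gene was left out of the fit for its low mean, and no difference was detectable at this depth. Of 7 enterocyte markers, 6 were found and none reached a mean of 1 TPM.

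APOH was the most uniform gene of the set in ADL, with a coefficient of variation of 2.22% there and 10.1% in RES. It had 4951, 4009, 4196 and 4779 TPM in RES lambs, and 5411, 5287, 5416 and 5580.3 TPM in ADL lambs. The highest RES lamb lay below the lowest ADL lamb. The mean was 4484 ± 453 TPM in RES and 5424 ± 120.5 TPM in ADL, a log2 difference of -0.28 ± 0.11, or -0.38 ± 0.11 after scaling. APOH lies on chromosome 11 from 61429202 to 61441684.

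**Figure D2:**
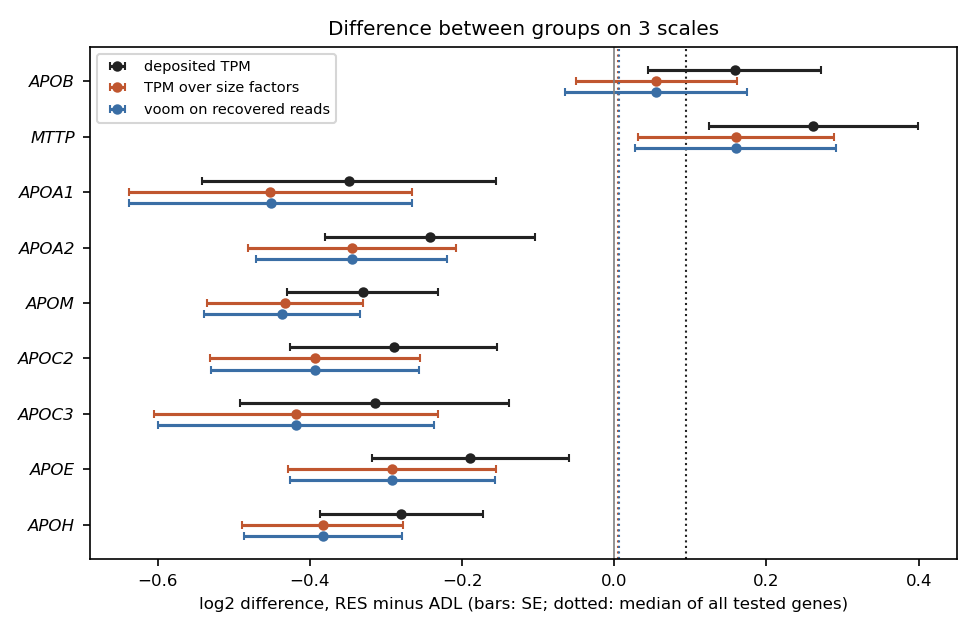
Log2 difference, RES minus ADL, of the 9 tested genes with limma's SE, from the deposited TPM, from TPM over size factors and from voom on recovered reads; dotted lines give the median of all tested genes. APOB and MTTP lie above 0 and the other 7 below it on all 3 scales.

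Limma (adjusted p under 0.05) called 0 of the 9, as it called 0 of all 13437 genes (0.0%), and the adjusted p of the 9 ran from 0.395 to 0.566. At an unadjusted p under 0.05 it held APOM and APOH on the lower side, where 1.5% of all genes stood, and 0 on the higher side, where 10.4% stood. The count of 2 was 6 without RES lamb 1, and 1 without RES lamb 2, RES lamb 3, ADL lamb 1, ADL lamb 3 or ADL lamb 4. After division by size factors the lower side held 5 of the 9 genes (APOA1, APOA2, APOM, APOC2 and APOH), against 4.25% of all genes, and the higher side again 0, against 3.4%. Limma's voom, a method for counts, was run on the whole reads worked back from TPM. It called 0 at an adjusted p and held the same 5 and APOC3 on the lower side at an unadjusted p, against 4.13% of all genes, and 0 on the higher side, against 3.7%. The split of all genes at an unadjusted p was 201 lower and 1393 higher in the deposited TPM, and 571 lower and 457 higher after scaling.

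The median difference of the 9 genes was -0.28, against 0.09 for all tested genes, and -0.38 against 0.01 after scaling. A difference below 0 was found for 7 of the 9 genes and for 29.0% of all genes, or 48.4% of them after scaling. The groups did not overlap, with RES lower, for 2 of the 9 genes and 0.781% of all genes, and, with RES higher, for 0 of the 9 and 6.61% of all. After scaling these were 4 of the 9 (APOA2, APOM, APOC2 and APOH) and 2.43% on the lower side, and 0 and 2.22% on the higher. Since the genes were chosen with this comparison known, nothing is read from these shares.

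In the authors' deposited table, which rests on the same reads, APOH was the only gene of the set with a DESeq2 adjusted p under 0.05, a call made on the lower side for 0.142%, and on the higher side for 0.0889%, of the 5627 genes with an adjusted p. Those genes had a mean of normalized counts of at least 278.3, scaled by size factors. The limma fit took 13437 genes in the deposited TPM, so the adjusted p-values differ in both genes and scale. At an unadjusted p under 0.05 the authors' deposited table holds 7 of the 10 on the lower side, where 2.67% of its 22130 genes stand, and 0 on the higher side, where 2.51% stand. The authors' deposited table gives APOH a shrunken log2 fold change of -0.36 ± 0.08 (SE, adjusted p = 0.00907), and by p it ranked 7 of all those genes. APOM has -0.39 ± 0.11 in the authors' deposited table, with an adjusted p of 0.0843, and ranked 29. For APOA2 the authors' deposited table gives -0.30 ± 0.11 (adjusted p = 0.254), for APOC2 -0.32 ± 0.12 (adjusted p = 0.291) and for APOC3 -0.31 ± 0.14 (adjusted p = 0.456). APOA1, with -0.32 ± 0.15, and APOE, with -0.25 ± 0.12, share 0.441 as adjusted p in the authors' deposited table. On the higher side the authors' deposited table gives APOB 0.05 ± 0.10 (adjusted p = 0.902) and MTTP 0.15 ± 0.12 (adjusted p = 0.746). APOA4 has -0.08 ± 0.13 there, with a DESeq2 unadjusted p of 0.567 and no adjusted p.

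The lambs deviated from their own group in different ways for different genes. All 9 tested genes had a larger SD of log2(TPM + 1) among RES than among ADL lambs, as did 55.6% of all tested genes. RES lamb 1 lay above the RES mean for 7 of the 9, most of all for APOA1 (0.48 log2 units) and APOC3 (0.38), and below it for APOA2 (-0.18) and MTTP (-0.20). RES lamb 4 lay high for MTTP (0.39), APOB (0.26) and APOA2 (0.23), and low for APOC3 (-0.31) and APOE (-0.22). Among ADL lambs the largest departure for any of the 9 genes was 0.21 log2 units, of APOE in lamb 4.

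**Figure D3:**
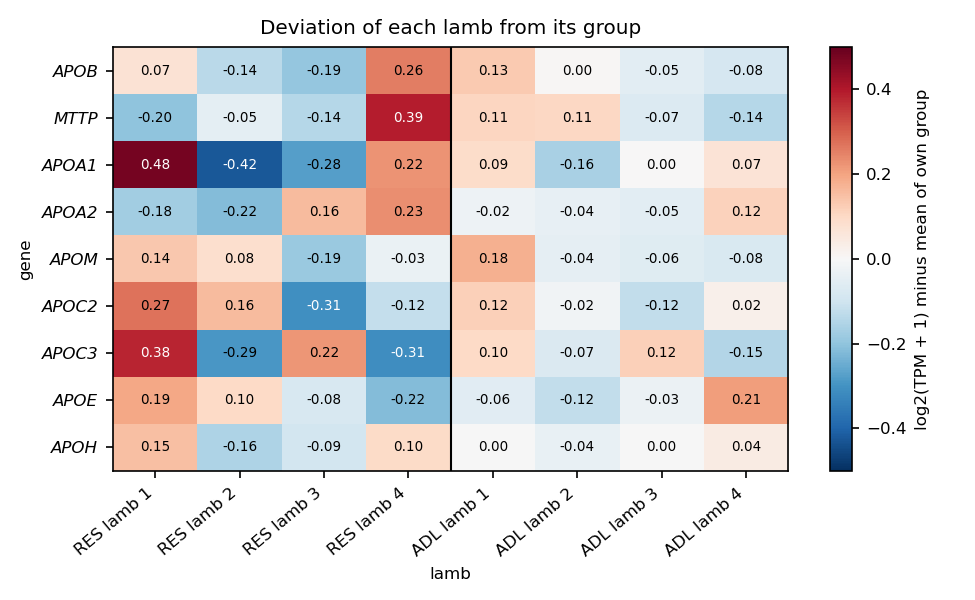
Deviation of each lamb from the mean of its own group, in log2(TPM + 1), for the 9 tested genes; RES lambs stand left of the line and ADL lambs right of it. RES lambs show the wider colours, from -0.42 to 0.48 for APOA1.

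After the group means were removed, the 36 pairs of genes had correlations across the 8 lambs from -0.79 to 0.98, with a median of 0.21 and 27 above 0. These are descriptions over 8 lambs that share libraries and scaling. All 9 genes varied more among RES than among ADL lambs, so the RES lambs weigh more in these correlations. The share above 0 among pairs of all genes was not worked out. APOA1 and APOH were the most alike (r = 0.98), followed by APOM with APOC2 (0.88) and APOB with MTTP (0.74). MTTP and APOE were the most opposed (-0.79), then APOA2 and APOC2 (-0.74). Outside the set, the genes most like the mean of the 9 among 13428 were the uncharacterized LOC105610454 (r = 0.96), NDUFB2, a subunit of respiratory complex I, the uncharacterized LOC105615813, the deubiquitinase USP15 and the splicing factor SRSF6 (r = 0.95). HERPUD1, a protein of endoplasmic reticulum quality control, was among the 3 most like APOH (r = 0.98), at 168 ± 44.1 TPM in RES and 127 ± 13.9 TPM in ADL. The others were LOC101122662, described as cytochrome b5 reductase 4, and LOC101119962, described as heterogeneous nuclear ribonucleoprotein K-like (r = 0.98 each). Nearest to APOB were MYSM1, a histone deubiquitinase (r = 0.99), SPAG8 and LOC101112959, described as zinc finger protein 160-like. Each of these is a highest value picked from 13428 genes over 8 lambs.

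Measured against APOB, the transcripts of APOE, APOC3, APOA1 and APOA2 were fewer in RES on average, a direction already given by the levels above. Each VLDL particle carries a single copy of APOB, but these are ratios of mRNA and not of protein. APOE stood at 11.9 ± 2.36 TPM per TPM of APOB in RES and 14.96 ± 2.32 in ADL, and APOC3 at 11.9 ± 3.49 and 16.0 ± 1.33 in the same order. For APOA1 the ratio was 3.05 ± 0.647 in RES and 4.28 ± 0.398 in ADL, and for APOA2 it was 23.5 ± 4.33 in RES and 30.8 ± 3.23 in ADL. All 4 ratios overlapped between the groups. APOC3 over APOC2, an inhibitor against an activator of the same lipase, was alike in mean, 4.44 ± 1.32 in RES and 4.40 ± 0.548 in ADL, but ran from 3.15 to 6.20 among RES lambs and from 3.88 to 5.17 among ADL lambs.

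Apolipoprotein genes sit in clusters, and 5 of the 10 lie in a pair of them. On chromosome 15, APOA4 (26932026 to 26934942), APOC3 (26940125 to 26942730) and APOA1 (26955069 to 26957300) lie 5182 and 12338 bases apart, with LOC101112345 between the last 2. Of the 6 other genes within 60000 bases, 4 had a lower mean log2 level in RES, beside 29.0% of all tested genes, and none had groups that did not overlap. The 4 were APOA5, ZPR1, LOC101112345, which may share reads with APOA1, and the pseudogene LOC101112086. The pseudogene stood at only 1.44 ± 2.19 TPM in RES and 3.12 ± 2.80 TPM in ADL. APOA5, a further cofactor of lipoprotein lipase, stood at 311 ± 175 TPM in RES and 412 ± 121 TPM in ADL (-0.54 ± 0.39). At the edges of the cluster SIK3, a kinase gene, stood at 3.06 ± 0.0975 TPM in RES and 2.91 ± 0.246 TPM in ADL, and BUD13, a splicing factor gene, at 7.38 ± 1.05 TPM in RES and 6.96 ± 0.979 TPM in ADL.

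On chromosome 14, APOE (51603078 to 51605097) and APOC2 (51620148 to 51622300) lie 15050 bases apart with APOC4 between them. Here 8 other genes lay within 60000 bases and 6 were tested. APOC4, a minor apolipoprotein of VLDL, was the only one of the 6 with a lower mean log2 level in RES, beside 29.0% of all tested genes. It had 1648, 1612, 1702 and 1508 TPM in RES lambs, and 1727, 1918, 1840.0 and 1802 TPM in ADL lambs. Its groups thus did not overlap (-0.17 ± 0.09), as held with RES lower for 0.781% of all tested genes. The authors' deposited table gives APOC4 a log2 fold change of -0.26 ± 0.08 (adjusted p = 0.142). The non-apolipoprotein neighbours TOMM40, a mitochondrial import pore (15.5 ± 1.52 TPM in RES, 13.3 ± 1.39 TPM in ADL), and CLPTM1 (54.9 ± 3.35 TPM in RES, 53.2 ± 4.62 TPM in ADL) had slightly higher means in RES, with overlap.

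The wider pathway was read from 5 lists of genes, of which 129 genes were tested. None passed an adjusted p of 0.05 (0.0% of all genes did), and at an unadjusted p under 0.05 there were 3 on the lower and 10 on the higher side, where 1.5% and 10.4% of all genes stood. Of all tested genes 71.0% had a higher mean log2 level in RES in the deposited TPM and 51.6% after scaling, and the counts of each list are to be read beside these shares. The list of other apolipoproteins and HDL proteins also holds genes akin in name, among them APOO, APOOL, the receptor APOBR and APOLD1. Of its 12 tested genes, 6 had a lower and 6 a higher mean log2 level in RES, with a median difference of 0.02 (-0.07 after scaling). The most abundant were a serum amyloid A gene, LOC101120204, then clusterin (CLU) at 2649 ± 236 TPM in RES and 2426 ± 202 TPM in ADL, the HDL-bound antioxidant enzyme PON1 at 2142 ± 250.3 TPM in RES and 2137 ± 125 TPM in ADL, and APOC4.

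Serum amyloid A is an acute phase protein that joins HDL in inflammation, and its gene differed widely between lambs of the same group. It had 7146, 22407, 389 and 351 TPM in RES lambs 1 to 4, and 36.6, 242, 62.5 and 412.5 TPM in ADL lambs 1 to 4. RES lambs 1 and 2 stood far above all others, while RES lambs 3 and 4 lay below ADL lamb 4, so the groups overlapped. The log2 difference was 4.12 ± 1.39 (limma unadjusted p = 0.0157, adjusted p = 0.395). No other gene of its list stood at an unadjusted p under 0.05. Haptoglobin (HP), another acute phase protein, had 954, 4179, 372 and 423 TPM in RES lambs and 17.5, 416, 87.6 and 1745 TPM in ADL lambs. These lambs were not alike in APOA1: RES lamb 1 had its highest value and RES lamb 2 its lowest. Both had the lowest values of APOA2, 8132 and 7911 TPM. Without RES lamb 2 the differences of APOA1, APOA2 and APOH were -0.21, -0.17 and -0.23, and without RES lamb 1 that of APOH was -0.33. The part of the acute phase genes in these differences was not tested.

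Of 32 genes of lipoprotein assembly and secretion, 29 had a higher mean log2 level in RES in the deposited TPM and 23 after scaling, with medians of 0.17 and 0.06. At an unadjusted p under 0.05 SAR1A, SAR1B, LMAN1 and TMEM33 stood higher (4 of 32, beside 10.4% of all genes) and 0 lower, all 4 at a limma adjusted p of at least 0.395. SAR1B, the small GTPase of the vesicle coat that carries large lipoproteins out of the endoplasmic reticulum, had 144, 109.7, 94.1 and 111 TPM in RES lambs, and 59.5, 103, 83.6 and 88.7 TPM in ADL lambs. RES lamb 3 lay below ADL lamb 2 and the other RES lambs above all ADL lambs. The most abundant genes of the list overlapped between groups: P4HB, the disulfide isomerase that is also the smaller subunit of the MTTP complex, at 653 ± 138 TPM in RES and 706 ± 112 TPM in ADL, the related PDIA3 at 683 ± 106 and 639 ± 138 TPM, the cytosolic thiolase ACAT2 at 591 ± 27.4 and 615 ± 23.1 TPM, and the chaperone HSPA5 at 446 ± 211 and 300.2 ± 109 TPM, in the same order.

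Of 23 receptors, lipases and remodelling genes, 17 had a higher and 6 a lower mean log2 level in RES, near the 71.0% of all genes that were higher (median 0.17, or 0.09 after scaling). ABCA1, which hands cholesterol to APOA1, stood at 19.9 ± 3.28 TPM in RES and 16.3 ± 0.898 TPM in ADL, and was the 1 gene of the list at an unadjusted p under 0.05, with an adjusted p short of the threshold. LCAT, the enzyme that APOA1 activates, stood at 360 ± 36.3 TPM in RES and 410 ± 31.0 TPM in ADL (-0.19 ± 0.10). Hepatic lipase (LIPC) had 63.3 ± 16.6 TPM in RES and 70.4 ± 10.8 TPM in ADL, and the remnant receptor LRP1 had 63.7 ± 14.3 TPM in RES and 57.0 ± 8.86 TPM in ADL.

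Of 32 transcription factors known to act on apolipoprotein genes, 28 had a higher mean log2 level in RES in the deposited TPM, but 16 after scaling, where the median turned from 0.09 to -0.004. HNF4A, the nuclear receptor that drives many hepatic apolipoprotein genes in mice, stood at 136 ± 11.7 TPM in RES and 119 ± 7.69 TPM in ADL (0.19 ± 0.09). XBP1 had 269 ± 55.1 TPM in RES and 218 ± 53.8 TPM in ADL, and NR1H3, the oxysterol receptor LXR alpha, had 62.8 ± 9.87 TPM in RES and 56.7 ± 5.09 TPM in ADL. CREB3L3, an activator of APOC2 and APOA4 in mice, had 208, 58.8, 58.7 and 53.9 TPM in RES lambs and 96.9, 42.9, 123 and 60.2 TPM in ADL lambs, with the highest value in RES lamb 1. At an unadjusted p under 0.05 the list held NR0B2 and SREBF1, the second a regulator of lipid synthesis at 19.7 ± 9.06 TPM in RES and 10.9 ± 3.95 TPM in ADL, neither past the adjusted threshold.

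Other plasma proteins of the hepatocyte gave the nearest comparison to the apolipoproteins. Of 30 tested, 18 had a lower mean log2 level in RES and 22 after scaling, with medians of -0.10 and -0.20. At an unadjusted p under 0.05 the iron carrier TF, the prothrombin gene F2 and the protease inhibitor gene SERPIND1 stood lower (3 of 30, beside 1.5% of all genes). CP and ORM1 stood higher (2 of 30, beside 10.4%). TF ran from 6803 to 8712 TPM in RES and from 9427.5 to 10154 TPM in ADL. F2 ran from 953 to 1096 TPM in RES and from 1103.5 to 1351.5 TPM in ADL. The groups of TF and F2 thus did not overlap, as held with RES lower for 0.781% of all tested genes. SERPIND1 stood at 618 ± 45.8 TPM in RES and 788 ± 110 TPM in ADL, with overlap. The most abundant were albumin (-0.24 ± 0.17), the fibrinogen chain FGB (0.20 ± 0.22), AHSG (-0.31 ± 0.20) and the thyroid hormone carrier TTR (-0.07 ± 0.17), none at an unadjusted p under 0.05. Whether the apolipoprotein set differed from these plasma proteins was not tested.

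**Figure D4:**
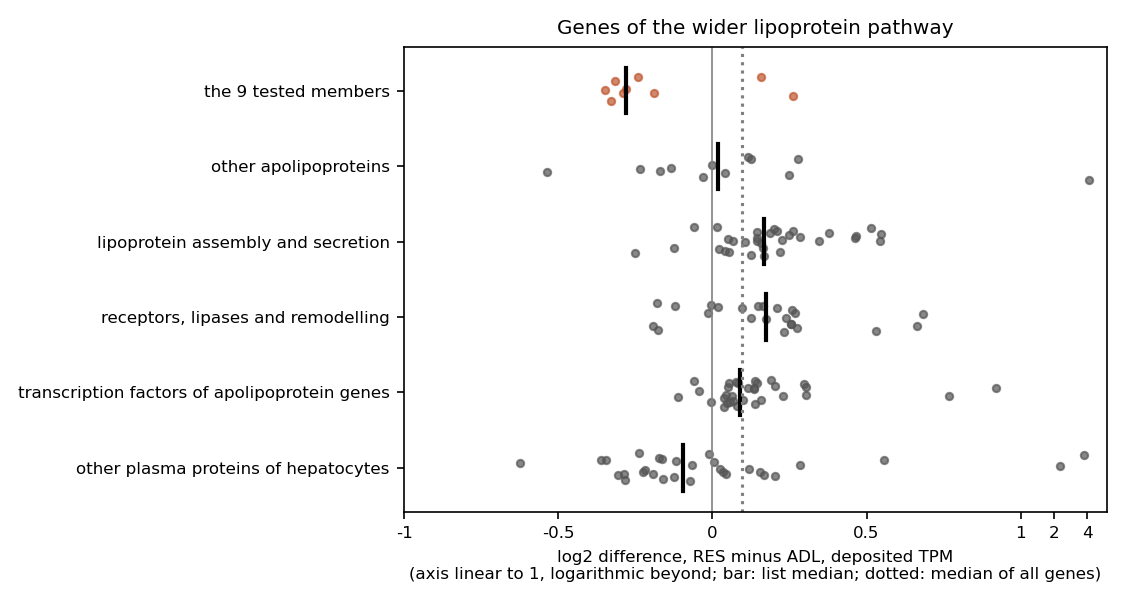
Log2 difference, RES minus ADL, in deposited TPM for the 9 tested genes and the 5 lists; each point is a gene, bars are list medians, and the dotted line is the median of all tested genes. The medians are -0.28 for the 9 genes, -0.10 for other plasma proteins and 0.17 for assembly and secretion, which is 0.06 after scaling.

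Markers of other liver cells gave no adjusted call. Stellate cell markers summed to 272 to 309.5 TPM in RES and 264 to 392 TPM in ADL, endothelial markers to 205 to 225 TPM in RES and 191 to 212.5 TPM in ADL, and bile duct markers to 18.8 to 25.9 TPM in RES and 16.2 to 25.2 TPM in ADL. Lymphocyte markers summed to 33.9 to 53.3 TPM in RES and 26.5 to 40.9 TPM in ADL, and red cell markers to 3.46 to 36.5 TPM in RES and 20.8 to 73.4 TPM in ADL. At an unadjusted p under 0.05 these 5 lists held CD2 alone, on the higher side. The part of these cells in the levels of the 10 genes was not tested.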

How the data were processed

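The authors deposited 1 table that holds, per the file headers, a TPM value for each gene and lamb, the gene length used for it, and the authors' DESeq2 result: a mean of normalized counts (a signal scaled by size factors), log2 fold changes with SE, a Wald statistic (a score), p-values and adjusted p-values. The deposited direction is RES over ADL, checked against the TPM means. Tools named in the submitters' processing notes are bcl2fastq 1.8.4 and DESeq2 1.12.4. No source used here states the aligner, the counter, its strand setting or the build.

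TPM times gene length, over the smallest value above 0 in each library, was whole within a relative tolerance of 1e-06 for 100% of values, which gives the read counts. Log2(TPM + 1) of the 13437 genes averaging 1 TPM or more was fitted with limma 3.58.1 (lmFit, eBayes with trend, R 4.3.3); p-values were adjusted by Benjamini-Hochberg over those genes, with a threshold of 0.05. On this scale the differences of low genes are understated. The fit was tested on simulated data. The genes and lists were chosen with earlier results of these data known. Of 217 listed symbols, 191 were found by symbol, 2 through the RefSeq table (ARS-UI_Ramb_v3.0), 6 by alias, and 18 were not found; 21951 identifiers of the table were in that RefSeq table. Genes named from lists are the 4 most abundant, of which 1 is not reported here; others were chosen after their values were seen. Alternatives were pseudocounts of 0.1 and 5, no filter, a minimum of 5 TPM, size factors, voom, each lamb left out, and a block by lamb number. An alternative without APOA1 was added after seeing the data.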

Additional observations from a re-analysis of the deposited data

Results flagged for a closer look

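In 2 of the 20 groups of 4 lambs examined (10 genes, 2 groups each), a lamb lay far from the other 3 of its group by Dixon's 95% critical value for the gap over the group's range. ADL lamb 4 had 11772.2 TPM of APOA2, with a gap of 0.845 of the range. ADL lamb 1 had 136.7 TPM of APOM, with a gap of 0.886. Chance flags about 1 in 20 such groups. Without ADL lamb 1 the APOM difference kept its sign, as did that of APOA2 without ADL lamb 4.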

How the results depend on the processing

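All 135 alternative values of the 9 tested genes kept their direction, and none passed an adjusted p of 0.05. The number of these genes at an unadjusted p under 0.05, 2 in the reported fit, was 1 with no filter on low values, 5 with size factors, 5 with the lamb number as a block and 6 with voom, and 1 to 6 with a lamb left out. Their median difference lay between -0.38 and -0.22. With no filter 1 gene of the whole table was called, and 0 to 1 with a lamb left out, against 0 reported. Of the 129 pathway genes 13 stood at an unadjusted p under 0.05, against 21 with the block and 8 to 22 with a lamb left out. The cause was not tested. The labels do not say whether lambs of the same number are paired. Deviations of lambs with the same number correlated at 0.15, -0.12, 0.05 and 0.06, which cannot exclude a pairing. The block called no gene of the set at an adjusted p, but neither did the reported fit, so this does not decide it. With APOA1 left out, an alternative added after seeing the data, the counts at an adjusted and an unadjusted p stayed at 0 and 2, and 6 of 8 genes were lower. APOA4, at 1 to 10 reads a lamb, is limited by depth.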
